A study of Homo sapiens with 6 samples.

Results

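Activator protein 1 (AP-1) was examined in the ovarian cancer line A2780, a human line, through the transcripts of 9 of its genes: the FOS family (FOS, FOSB, FOSL1 and FOSL2), the JUN family (JUN, JUNB and JUND), and ATF3 and BATF3. The members were chosen by gene symbol from a table of 60564 gene rows, and all 9 were found. RNA-seq counts were available for 3 libraries of A2780 cells labelled GPT2si and 3 libraries of A2780 cells labelled GPT2sinc. The mitochondrial alanine aminotransferase is the product of GPT2, and the series title concerns its deficiency; the labels do not spell out si and sinc, give no time or dose, and name no other allele or agent. Nothing in them says that a group's libraries were grown as separate cultures, and the spread that p-values rest on may therefore be technical.

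AP-1 is not a single protein but a set of dimers. Its subunits share a basic region that contacts DNA and a leucine zipper that joins them in pairs. JUN proteins can pair with each other or with FOS proteins, whereas FOS proteins do not form stable pairs among themselves and need a JUN partner. FOS, JUN, JUNB and ATF3 are immediate early or stress-induced genes, switched on within minutes to hours of growth factor or stress signals, and FOSL1 follows them and is held up by sustained ERK signalling.

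Library totals ran from 41931162 to 50882329 counts in the GPT2si libraries and from 43351984 to 45508530 counts in the GPT2sinc libraries. Levels are CPM, each library's counts divided by its total and scaled by TMM factors, and 3 counts equal 0.0597 to 0.0770 CPM. GPT2 itself, the check of the labels, was at 95.0 ± 1.69 CPM in GPT2si and 228 ± 8.59 CPM in GPT2sinc (SD, n = 3 each). Of 5 epithelial markers KRT8, KRT18 and EPCAM were above 1 CPM and KRT19 and CDH1 below it. Of 4 ovarian carcinoma markers WT1 and EMX2 had 0 counts in every library, and PAX8 and MUC16 were below 1 CPM. Of 5 fibroblast markers COL1A1, COL1A2 and PDGFRA were abundant, with a summed level of 520 to 563 CPM over the list in GPT2si and 516 to 539 CPM in GPT2sinc, while DCN was at 3.46 to 4.76 CPM in GPT2si and 3.38 to 4.25 CPM in GPT2sinc and LUM was below 1 CPM in every library. The 4 endothelial markers were each below 1 CPM. Of the leukocyte markers PTPRC, CD3E and CD14 were at or near 0, and the list of 5 summed to 4.85 to 8.95 CPM in GPT2si and 6.57 to 6.71 CPM in GPT2sinc.

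FOSL1 was the one member of AP-1 that passed the test between the groups, and it rose. Among 8 members with enough counts to be tested, 1 rose, 0 fell and 7 did not pass (edgeR quasi-likelihood test, Benjamini-Hochberg adjusted p under 0.05 over 17006 genes). Over all tested genes 1.42% passed in either direction, 0.576% as rises (98 genes) and 0.841% as falls (143 genes). DESeq2, another count model, gave an adjusted p for 13594 genes. Of these 4.38% passed as rises (596) and 3.38% as falls (460), and among members FOSL1 again rose and 0 fell. At an unadjusted p under 0.05, 3 members were higher and 0 lower, namely FOSL1, JUN and JUNB, where 10.3% of all tested genes were higher and 9.27% lower. The same 3 genes were those whose GPT2si libraries all lay above the GPT2sinc libraries; in 28.2% of tested genes the groups did not overlap, in 14.9% with GPT2si above and in 13.2% with GPT2si below. In bulk RNA a change in every cell and a change in a share of the cells cannot be told apart. The median log2 fold change was 0.05 over the 8 tested members, 5 of them positive, against -0.01 over all tested genes, of which 48.0% were positive.

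**Figure D1:**
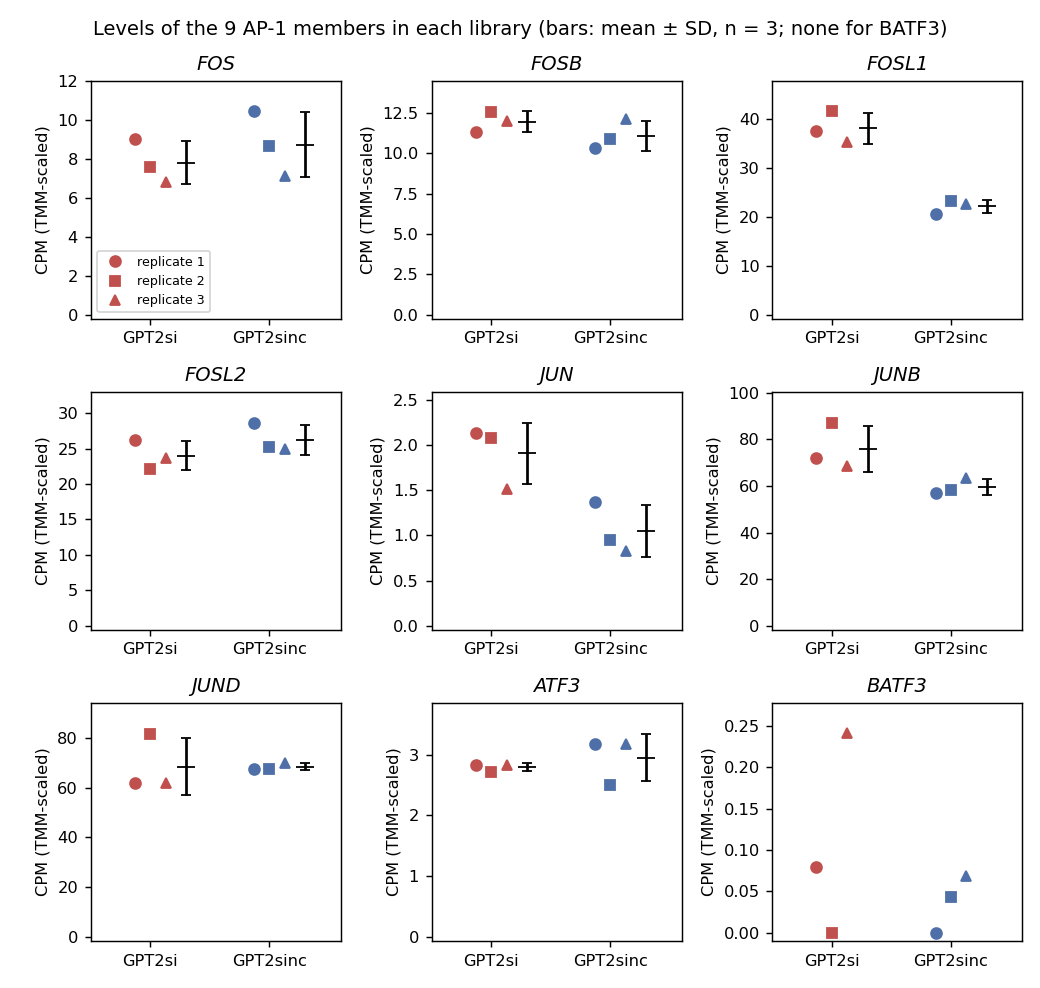
Level of each of the 9 members in CPM on linear axes, with each point 1 library, the shape giving the replicate number, and bars the mean ± SD of 3 libraries (no bar for BATF3). GPT2si lies above GPT2sinc without overlap for FOSL1, JUN and JUNB, and the groups overlap for the others.

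The upstream sequences of the JUN genes, which belong to the same family, are shown first. JUN and JUNB did not overlap between the groups, as in 28.2% of tested genes, and neither passed the test. JUND overlapped. Whether the windows bear on these levels was not tested. The lines give RefSeq windows before the transcript start on GRCh38.p14, 5′ to 3′ on the strand of the gene, namely JUN at chr1:58784096-58784125 on the minus strand, JUNB at chr19:12791236-12791485 on the plus strand and JUND at chr19:18281623-18281872 on the minus strand. The GENCODE 29 gene of JUN begins 280 bases before the RefSeq start. The JUN line thus lies inside that gene and is upstream of the RefSeq start only. It is kept to 30 bases around its match. Capitals mark matches to TGANNTCA or to TATAAA.
JUN: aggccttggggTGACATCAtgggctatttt
JUNB: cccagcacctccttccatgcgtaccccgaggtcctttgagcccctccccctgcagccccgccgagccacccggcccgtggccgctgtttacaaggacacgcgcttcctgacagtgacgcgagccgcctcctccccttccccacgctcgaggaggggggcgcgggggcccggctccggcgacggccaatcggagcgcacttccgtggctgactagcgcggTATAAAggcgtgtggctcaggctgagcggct
JUND: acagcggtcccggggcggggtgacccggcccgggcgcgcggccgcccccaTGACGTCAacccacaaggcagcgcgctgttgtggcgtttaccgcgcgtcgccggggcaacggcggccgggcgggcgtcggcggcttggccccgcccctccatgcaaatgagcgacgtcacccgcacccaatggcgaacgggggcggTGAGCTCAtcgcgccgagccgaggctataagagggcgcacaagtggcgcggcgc

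Windows of 250 bases were on hand for 7 of the 9 members, 8 windows in all, and FOSL1 and BATF3 had none. The 8-base match in JUN, TGACATCA, lay 67 to 60 bases before its RefSeq start. This match is the element through which JUN is known to be bound by its own product together with ATF2. The whole JUN window of 250 bases lies inside the GENCODE gene, so its matches are upstream of the RefSeq start only. Bases before the GENCODE start of JUN were not searched. JUND held TGACGTCA and TGAGCTCA. The 8-base motif TGANNTCA, searched on both strands, occurred in the windows of JUN, JUND and ATF3 and in 10.1% of 35116 windows of the same length. The 7-base motif TGANTCA occurred in 0 of the 8 windows, so none of their matches overlapped, and in 6.57% of all. TATAAA occurred in windows of JUNB, FOS, FOSB and ATF3 and in 10.7% of all, and CCAAT in those of JUN, JUNB, JUND and ATF3 and in 32.0% of all. The CArG box, the site of serum response factor, occurred in 0 of the 8 windows and in 1.16% of all. Bases farther than 250 upstream of the start were not searched, so a site beyond that distance would be missed. These matches describe letters in the windows and say nothing of binding.

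FOSL1 (ENSG00000175592; chromosome 11, 65892049 to 65900573 on the minus strand of GRCh38 in GENCODE 29; protein coding) encodes FRA-1, a FOS protein that lacks the strong C-terminal activation domain of FOS and is known for roles in migration and invasion of carcinoma cells. It had 1884, 1620 and 1607 counts in GPT2si 1 to 3, against 947, 1078 and 986 counts in GPT2sinc 1 to 3. In CPM these were 37.5, 41.6 and 35.3 in GPT2si, against 20.6, 23.2 and 22.7 in GPT2sinc. The lowest GPT2si library thus stood well above the highest GPT2sinc library. The mean level was 38.1 ± 3.19 CPM in GPT2si and 22.2 ± 1.35 CPM in GPT2sinc (SD, n = 3 each), a ratio of 1.72. The log2 fold change was 0.78 (SE 0.11, 95% interval 0.54 to 1.02; adjusted p = 0.0159, edgeR), higher in 3 of 3 GPT2si libraries. By p-value FOSL1 ranked 33 among the 17006 genes, and by fold change it ranked 34 among the 98 genes that rose.

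The size of the FOSL1 rise moved little when single libraries were left out, between 0.70 and 0.84, but its call did not hold in 4 of these 6 fits. The adjusted p was 0.0862 without GPT2si 1, and 0.105, 0.107 and 0.0791 without GPT2sinc 1, 2 and 3 (edgeR). Without GPT2si 2 it was 0.00597 and without GPT2si 3 it was 0.0278. Over all genes, 1 passed as a rise and 1 as a fall without GPT2si 1. Without GPT2sinc 1, 2 and 3 the rises numbered 3, 0 and 1 and the falls 1, 1 and 4. Without GPT2si 2 there were 377 rises and 459 falls, and without GPT2si 3 there were 51 and 58. In the alternatives that kept all libraries FOSL1 stayed past the test, with adjusted p from 6.93e-08 by DESeq2 to 0.0415 with no low-count filter.

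**Figure D2:**
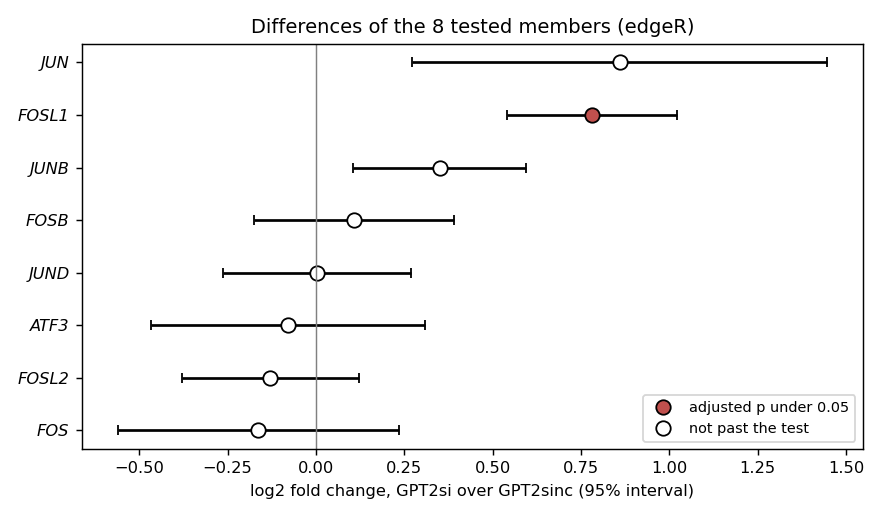
Log2 fold change of the 8 tested members, GPT2si over GPT2sinc, with 95% intervals from the edgeR fit; the filled point passed the adjusted threshold. The intervals of FOSL1, JUN and JUNB lie above 0, and those of the other 5 include 0.

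The other 3 FOS genes did not pass, and their groups overlapped. FOS (ENSG00000170345; chromosome 14, 75278774 to 75282230, plus strand) encodes the founding, rapidly induced and short-lived subunit of the family. It was at 9.01, 7.57 and 6.83 CPM in GPT2si 1 to 3, against 10.4, 8.67 and 7.10 CPM in GPT2sinc 1 to 3. The spread inside each group was wider than the gap between the means, with a log2 fold change of -0.16 (95% interval -0.56 to 0.23; adjusted p = 0.640, edgeR).

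FOSB (ENSG00000125740; chromosome 19, 45467995 to 45475179, plus strand), known for a truncated splice form that accumulates with repeated stimulation, was at 11.3, 12.6 and 12.0 CPM in GPT2si and 10.3, 10.9 and 12.1 CPM in GPT2sinc. Its log2 fold change was 0.11 (95% interval -0.17 to 0.39; adjusted p = 0.669, edgeR). Counts per gene do not separate splice forms. ERCC1, a repair gene on the opposite strand, overlaps FOSB along the chromosome with 0 shared exon bases.

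FOSL2 (ENSG00000075426; chromosome 2, 28392448 to 28417312, plus strand) encodes FRA-2, the close paralog of FRA-1. It was at 26.2, 22.1 and 23.8 CPM in GPT2si, against 28.7, 25.2 and 24.9 CPM in GPT2sinc, with a log2 fold change of -0.13 (95% interval -0.38 to 0.12; adjusted p = 0.549, edgeR). An antisense gene, FLJ31356, and a sense intronic gene, AC104695.3, overlap FOSL2 along the chromosome, each with 0 shared exon bases. The upper ends of the FOS, FOSB and FOSL2 intervals lie below the lower end of the FOSL1 interval. Within single libraries the ratio of FOSL1 to FOSL2, each per kilobase of transcript, was 5.75, 7.55 and 5.97 in GPT2si, against 2.89, 3.70 and 3.66 in GPT2sinc, a pair chosen after its values were seen.

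In the JUN family, JUN and JUNB stood higher in every GPT2si library but did not pass the test, and JUND overlapped. JUN (ENSG00000177606; chromosome 1, 58780788 to 58784327, minus strand) encodes c-Jun, the subunit activated by Jun N-terminal kinases. It was scarce, with 107, 81 and 69 counts in GPT2si 1 to 3, against 63, 44 and 36 counts in GPT2sinc 1 to 3. In CPM these were 2.13, 2.08 and 1.51 in GPT2si, against 1.37, 0.947 and 0.827 in GPT2sinc. GPT2si 3 and GPT2sinc 1 lay close to each other, and the groups did not overlap. The log2 fold change of 0.86 was larger than that of FOSL1 but less certain (SE 0.26, 95% interval 0.27 to 1.45; adjusted p = 0.127, edgeR). Its adjusted p lay between 0.0574 and 0.337 in the alternatives, so JUN passed in none of the 15 run, with values from 0.72 to 1.10.

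JUNB (ENSG00000171223; chromosome 19, 12791496 to 12793315, plus strand), whose protein is a weaker activator than c-Jun and can restrain it, was at 72.2, 87.2 and 68.4 CPM in GPT2si, against 57.2, 58.2 and 63.4 CPM in GPT2sinc. GPT2si 2 was the highest library and GPT2si 3 the one nearest to GPT2sinc. The log2 fold change was 0.35 (SE 0.11, 95% interval 0.10 to 0.60; adjusted p = 0.133, edgeR), and 0.23 without GPT2si 2. With offsets that remove trends with GC content and transcript length, JUNB passed (0.33, SE 0.06; adjusted p = 0.0115, edgeR, against up to 0.438 in other alternatives), in a fit where 6.97% of genes passed as rises (1173) and 4.9% as falls (824). In that fit 2 members rose, FOSL1 and JUNB, and 0 fell. The same 2 members rose when the offsets were not centred within each library (JUNB 0.36; adjusted p = 0.0115, edgeR), an alternative added after the data were seen, in which 7.76% of genes passed as rises (1306) and 3.96% as falls (667). JUNB overlaps HOOK2 on the opposite strand over 259 exon bases, and no source used here gives the strand setting of the counting, so reads of the pair may be mixed. HOOK2, a microtubule linker, was at 19.2 ± 1.62 CPM in GPT2si and 23.6 ± 1.21 CPM in GPT2sinc (SD, n = 3 each). Neither HOOK2 (-0.29, adjusted p = 0.186 by edgeR) nor JUNB passed in the reported fit. Among the alternatives, the adjusted p of HOOK2 went from 0.0289 with centred GC and length offsets to 0.498 without GPT2sinc 1. Whether reads of the pair were mixed was not tested.

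JUND (ENSG00000130522; chromosome 19, 18279760 to 18281622, minus strand), the constitutively expressed JUN gene that is bound and restrained by menin, was at 61.8, 81.6 and 61.8 CPM in GPT2si, against 67.6, 67.4 and 69.9 CPM in GPT2sinc. GPT2si 2 lay above all 3 GPT2sinc libraries and GPT2si 1 and 3 below them. The log2 fold change was 0.00 (95% interval -0.26 to 0.27; adjusted p = 0.995, edgeR), and -0.16 without GPT2si 2. JUND and JUNB have GC-rich transcripts, at 69.7% and 64.9% GC. Genes in the tenth of tested genes richest in GC, at 61.9% or more, had a median of 0.23 in GPT2si 2 on the centred log2 scale and of -0.07 and -0.08 in GPT2si 1 and 3, with -0.05, -0.01 and 0.02 in the GPT2sinc libraries. In the tenth poorest in GC, at 38.9% or less, the median was 0.01, -0.43 and 0.16 in GPT2si 1 to 3. It was 0.26, 0.02 and -0.0044 in GPT2sinc 1 to 3. FOSL1, also highest in GPT2si 2, is at 60.0% GC. What part GC content has in the JUNB, JUND and FOSL1 values was not tested beyond the offsets named above.

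ATF3 and BATF3 complete the set. ATF3 (ENSG00000162772; chromosome 1, 212565334 to 212620777, plus strand), a stress-induced factor that represses as a homodimer and pairs with JUN proteins, was at 2.82, 2.72 and 2.83 CPM in GPT2si, against 3.18, 2.50 and 3.17 CPM in GPT2sinc. The GPT2si libraries fell inside the range of the GPT2sinc libraries. The log2 fold change was -0.08 (95% interval -0.47 to 0.31; adjusted p = 0.834, edgeR). BATF3 (ENSG00000123685; chromosome 1, 212686418 to 212699985, minus strand), a JUN partner without an activation domain of its own and known from dendritic cells, had 4, 0 and 11 counts in GPT2si and 0, 2 and 3 counts in GPT2sinc. It was left out of the test for low counts and was near the floor of 3 counts, so no fold is given.

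Per kilobase of the longest transcript, JUNB and JUND were the most abundant members. Over the 6 libraries JUNB averaged 37.2 and JUND 36.7 CPM per kb, with ranges that overlapped. FOSL1 followed at 18.1 CPM per kb, apart from JUND above it and FOS below it. FOS, FOSL2 and FOSB averaged 3.83, 3.75 and 3.06 CPM per kb and overlapped with their neighbours; FOS and FOSL2 change places when the summed exon length is used. ATF3 at 1.37, JUN at 0.418 and BATF3 at 0.0306 CPM per kb stood apart from each other. Among 13554 tested protein-coding genes JUNB lay at percentile 87.4, FOSL1 at 75.5, FOS at 42.6 and JUN at 12.7.

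FOSL1 made up a larger share of the FOS family in each GPT2si library than in any GPT2sinc library; no test of the make-up of either family was run. Summed over the FOS family, the level was 33.5, 35.0 and 31.0 CPM per kb in GPT2si, against 24.2, 24.6 and 23.8 CPM per kb in GPT2sinc. FOSL1 made up 68.7 ± 2.12% of it in GPT2si and 54.9 ± 3.33% in GPT2sinc (SD, n = 3 each), while the CPM of the other 3 genes overlapped between the groups. The JUN family summed to 73.4, 92.3 and 71.2 CPM per kb in GPT2si, against 68.1, 68.4 and 72.6 CPM per kb in GPT2sinc, and these overlapped. JUNB was ahead of JUND in each GPT2si library, with a ratio of 1.20, 1.09 and 1.13, and behind it in each GPT2sinc library, with 0.866, 0.884 and 0.929, a pair also chosen after its values were seen. JUN made up 0.685 ± 0.12% of its family in GPT2si and 0.428 ± 0.13% in GPT2sinc (SD, n = 3 each). These shares are descriptions, since they follow from the member levels above.

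**Figure D3:**
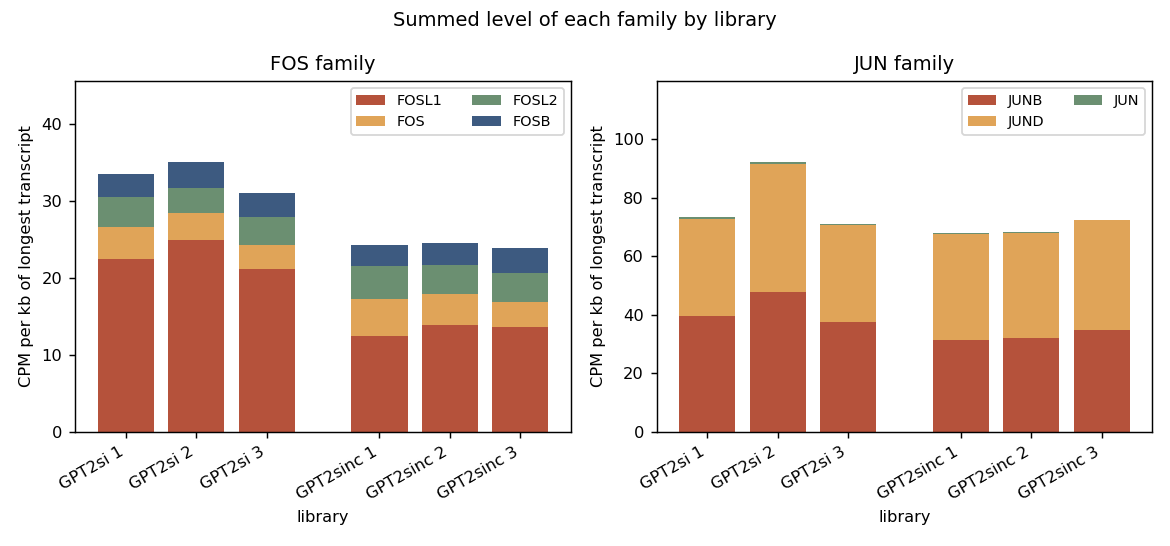
Summed level of the FOS family and of the JUN family in each library, stacked by gene, in CPM per kb of the longest transcript in GENCODE 29. FOSL1 is the largest block of the FOS family in all 6 libraries and larger in GPT2si; JUNB exceeds JUND in the GPT2si libraries and JUND exceeds JUNB in the GPT2sinc libraries.

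Over the 6 libraries, the protein-coding genes of at least 5 CPM most like FOSL1 by Pearson correlation of log2 CPM were DLG5, a polarity scaffold (r = 0.999), ACTA2, a smooth muscle actin (0.999), HS6ST1, a heparan sulfate sulfotransferase (0.998), CDC42SE1, a CDC42 effector (0.998), and TXNL4B, a splicing protein (0.998), out of 10209 compared. The points share the split into 2 groups of 3, which sets most of each r. Of these genes ACTA2 rose (log2 fold change 0.80; adjusted p = 0.0115, edgeR), and the other 4 lay between 0.29 and 0.48 with adjusted p from 0.0602 to 0.0838. All were picked for likeness to FOSL1 in these same libraries, so their positive values follow from the choice.

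Genes around AP-1 were read from lists chosen with earlier results of these data known, and are described by counts. Of 16 other basic leucine zipper partners 12 were tested and 0 passed, nor did any pass by DESeq2 or at an unadjusted p under 0.05. At that unadjusted threshold 10.3% of all tested genes were higher and 9.27% lower. The median log2 fold change of the partners was -0.06. The most abundant were ATF4, the amino acid response factor, at 1003 ± 73.2 CPM in GPT2si and 881 ± 69.9 CPM in GPT2sinc (0.19, SE 0.09), and NFE2L1, a proteasome regulator (-0.03, SE 0.08).

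Of 19 kinases that act on AP-1 proteins 0 passed edgeR or DESeq2, with a median of -0.02. At an unadjusted p under 0.05, 1 was lower, where 9.27% of all tested genes were lower. With GC and length offsets 1 passed as a fall, where 4.9% of all genes did. The most abundant were MAP2K2, an ERK activator, at 0.19 (SE 0.12), and RPS6KA1, which encodes the ERK-activated kinase RSK1, at 0.06 (SE 0.11). MAP2K2 had the highest value of the list and was at 0.02 without GPT2si 2. GPT2si lay wholly above GPT2sinc for 0 kinases and wholly below for 4, where 14.9% and 13.2% of all tested genes did. Transcript counts do not measure kinase activity.

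Of 13 factors that act on the FOS and JUN promoters 0 passed edgeR, with a median of 0.04. At an unadjusted p under 0.05 SRF was higher and MEF2A lower (-0.48, adjusted p = 0.210, edgeR). Over all tested genes 10.3% were higher and 9.27% lower at that threshold. By DESeq2 1 was higher, SRF, where 4.38% of all genes with a DESeq2 adjusted p were. With GC and length offsets 1 rose and 1 fell, where 6.97% and 4.9% of all genes did. ELK1, a ternary complex factor, was at 0.01 (SE 0.11) and MEF2D at 0.15 (SE 0.09). SRF, serum response factor, and MEF2A were named after their values were seen. SRF was at 99.3, 123 and 92.9 CPM in GPT2si, against 66.3, 75.3 and 76.9 CPM in GPT2sinc, and the groups did not overlap (0.53, SE 0.12; adjusted p = 0.0622 by edgeR, 0.00259 by DESeq2, from 0.00259 to 0.301 over the alternatives).

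Of 8 genes for decay, turnover and repression of AP-1 0 passed edgeR or DESeq2, with a median of 0.03. At an unadjusted p under 0.05, 1 was higher, where 10.3% of all tested genes were higher. ZFP36L1, which promotes decay of AU-rich mRNAs, was at 226 ± 2.11 CPM in GPT2si and 241 ± 3.04 CPM in GPT2sinc (-0.09, SE 0.07). MEN1, the gene of menin, was at 0.09 (SE 0.10).

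Of 27 genes described as AP-1 targets 20 were tested and 0 passed edgeR, with a median of 0.03. At an unadjusted p under 0.05, 3 were higher and 1 lower, where 10.3% of all tested genes were higher and 9.27% lower. DESeq2 called the same 4 genes, 3 higher (TIMP1, MMP3 and CCND1) and 1 lower (VEGFA). Of all genes to which it gave an adjusted p, it called 4.38% higher and 3.38% lower. The most abundant were GJA1, a gap junction protein (-0.11, SE 0.11), and TIMP1, an inhibitor of matrix metalloproteinases. TIMP1 was at 392, 522 and 397 CPM in GPT2si, against 278, 305 and 326 CPM in GPT2sinc, without overlap (0.53, SE 0.12; adjusted p = 0.0684, edgeR; from 0.00265 by DESeq2 to 0.304 over the alternatives). MMP3, stromelysin, a classic AP-1 target named after its values were seen, had the largest positive value of the list, at 3.17 ± 0.41 CPM in GPT2si and 1.75 ± 0.47 CPM in GPT2sinc (SD, n = 3 each; 0.86, SE 0.23; adjusted p = 0.0979, edgeR; 0.0439 by DESeq2, and from 0.0322 to 0.346 over the alternatives). CCND1, cyclin D1, and VEGFA, an angiogenic growth factor, were also named after their values were seen. CCND1 had a log2 fold change of 0.29 (adjusted p = 0.113 by edgeR, 0.0373 by DESeq2). VEGFA was at 82.1, 74.1 and 92.2 CPM in GPT2si, against 125, 103 and 96.0 CPM in GPT2sinc, without overlap (-0.38, SE 0.12; adjusted p = 0.134 by edgeR, 0.0476 by DESeq2, and from 0.0291 to 0.449 over the alternatives). MMP9, MMP13, IL6, CXCL8, CCL2, CD44 and IVL did not have enough counts to be tested.

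Of 25 other immediate early genes 24 were tested, 3 rose, 0 fell and 21 did not pass, where 0.576% of all tested genes rose and 0.841% fell. The median log2 fold change was 0.27, and the values ran from -1.76 to 1.21. At an unadjusted p under 0.05, 8 were higher and 2 lower, against 10.3% and 9.27% of all tested genes. DESeq2 gave no adjusted p for some tested genes of this list. It called 5 higher and 1 lower, where it called 4.38% higher and 3.38% lower of all genes with an adjusted p. Whether the list differed from the AP-1 members was not tested. EGR1, a zinc finger factor induced through the same promoter elements as FOS, was at 81.8, 84.3 and 71.7 CPM in GPT2si, against 39.2, 42.2 and 45.8 CPM in GPT2sinc (0.90, SE 0.10; adjusted p = 0.0115, edgeR). EGR3 (1.21, SE 0.18; adjusted p = 0.0230, edgeR) and CCN1, a matricellular protein (0.90, SE 0.14; adjusted p = 0.0250, edgeR), rose as well. MYC was at 106 ± 4.09 CPM in GPT2si and 79.9 ± 5.50 CPM in GPT2sinc and did not pass (0.41, SE 0.09; adjusted p = 0.0586, edgeR). Its call changed with the setting: MYC passed by DESeq2 (adjusted p = 0.00260), with GC and length offsets (0.00780, and 0.00794 not centred) and without GPT2si 2 (0.0260), while its adjusted p reached 0.282 without GPT2sinc 1. The genes lower at an unadjusted p under 0.05 were the nuclear receptor genes NR4A1 and NR4A3, named after their values were seen. NR4A1 was at 9.81, 10.4 and 10.4 CPM in GPT2si, against 14.8, 14.9 and 12.2 CPM in GPT2sinc (-0.45, SE 0.13; adjusted p = 0.113 by edgeR, 0.0373 by DESeq2, and from 0.0261 to 0.373 over the alternatives). NR4A3 had 7, 0 and 5 counts in GPT2si, against 14, 12 and 15 counts in GPT2sinc, and at these low counts its value of -1.76 (SE 0.68; adjusted p = 0.200, edgeR) was imprecise. The calls of EGR1, EGR3 and CCN1 were lost without GPT2si 1 or any single GPT2sinc library, and that of EGR3 also without GPT2si 3, with adjusted p from 0.0516 to 0.141 in those edgeR fits; EGR3 and CCN1 did not pass with no low-count filter either. Without GPT2si 1 or any single GPT2sinc library, only 0 to 3 of all tested genes passed as rises. Whether FOS differed from EGR1 in its response was not tested.

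**Figure D4:**
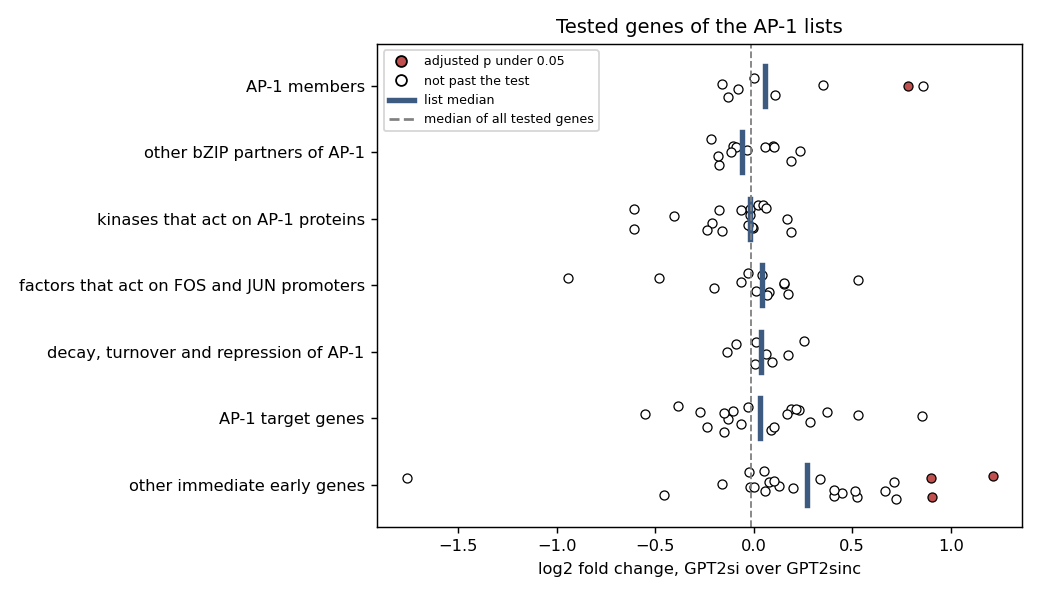
Log2 fold change of each tested gene of the 7 lists, GPT2si over GPT2sinc, with filled points past the adjusted threshold, a thick bar at the list median and a dashed line at the median of all tested genes. The 4 filled points are FOSL1, EGR1, EGR3 and CCN1, and the list of other immediate early genes has the highest median, 0.27.

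**Figure D5:**
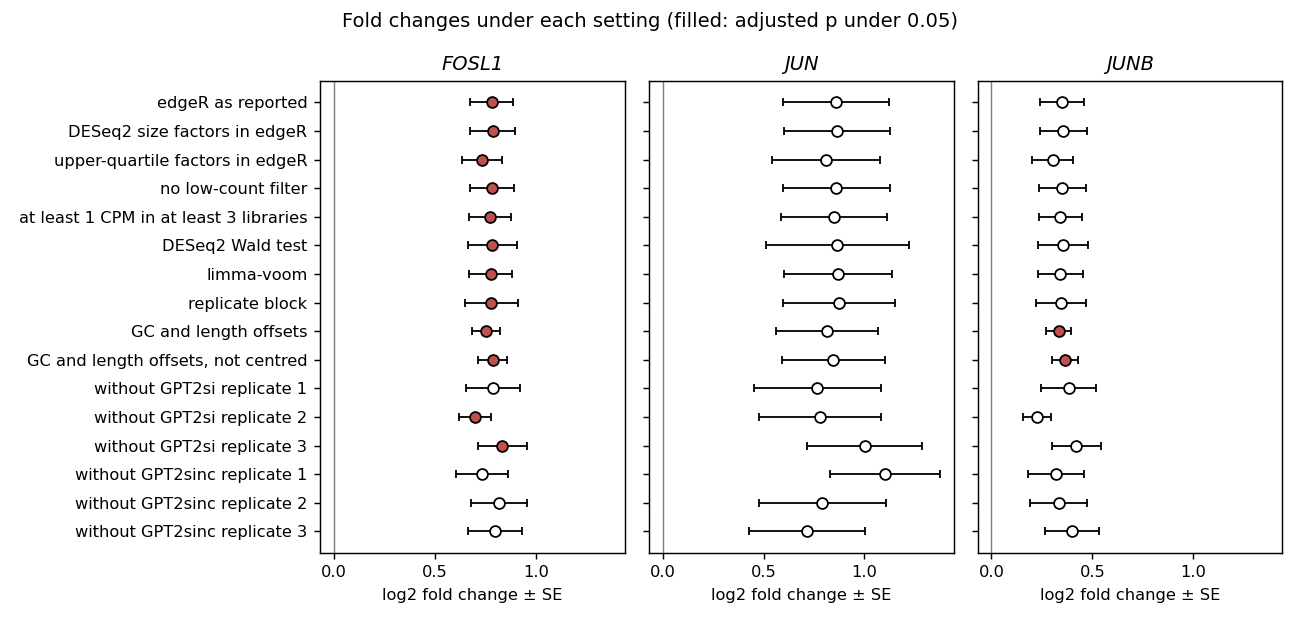
Log2 fold change ± SE of FOSL1, JUN and JUNB under the reported edgeR fit and each alternative, filled where the adjusted p is under 0.05. All points lie above 0; FOSL1 is unfilled without GPT2si 1 and without each GPT2sinc library, JUN is unfilled throughout and JUNB is filled with GC and length offsets, centred or not.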

How the data were processed

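The authors deposited a table of raw whole-number counts per Ensembl gene, 1 column for each of 6 poly(A)-selected, strand-marking RNA-seq libraries. The submitters' processing notes name CASAVA and StringTie with neither version nor role; which aligner, counter, strand setting, build and annotation were used is not given in the sources read. Groups came from the sample titles, and 0 columns were unmapped. Symbols were found for 60295 rows and GENCODE 29 entries for 58457, used for types, positions, lengths and GC. Genes were tested with edgeR 4.0.16 (R 4.3.3; glmQLFit and glmQLFTest, TMM factors, filterByExpr, group as the only term), adjusted by Benjamini-Hochberg over 17006 genes. SE and 95% intervals were derived from the F statistic. Alternatives were DESeq2 1.42.0, limma-voom (limma 3.58.1), other factors and filters, a replicate block, loess offsets (span 0.5) on GC and length centred to a median of 0 per library, and leaving out each library. The offsets were first run uncentred and were centred after that output was seen, so the uncentred fit is given as an added alternative. The edgeR fit was also run on counts simulated with known changes, where it missed some changes and made some false calls. The lowest chi-square per degree of freedom between library pairs was 7.71, so no pair agreed within sampling noise. Floors cover counting error only, since reads amplified by PCR and not tagged per molecule are not independent. Members and lists were chosen with earlier results of these data known. The genes named by rule are the 9 members, GPT2, from each list up to 4 of the smallest p where any passed and otherwise the 2 most abundant, and the 5 genes most like FOSL1. Named outside the rule are genes overlapping a member and, after their values were seen, SRF, MEF2A, MMP3, CCND1, VEGFA, NR4A1 and NR4A3.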

Additional observations from a re-analysis of the deposited data

How the results depend on the processing

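Genes called higher and lower numbered 98 and 143 in the reported fit, 61 higher with DESeq2 size factors in edgeR, 17 and 27 with no low-count filter, 596 and 460 with the DESeq2 test, 252 and 306 with the replicate block 1173 and 824 with GC and length offsets, and 1306 and 667 with these offsets not centred, an alternative added after the data were seen. Without single libraries they ranged from 0 to 377 and from 1 to 459, highest without GPT2si 2; the causes were not tested. AP-1 members called higher numbered 2 with GC and length offsets, centred or not, and 0 to 1 without single libraries. JUND turned negative with upper-quartile factors (-0.045), the 1 CPM filter (-0.0060), limma-voom (-0.014) and the replicate block (-0.0098), and ranged from -0.16 to 0.071 without single libraries. GJA1 turned positive with offsets not centred (0.0017). ELK1 turned negative with upper-quartile factors and GC offsets (-0.033 and -0.029); without single libraries it ranged from -0.12 to 0.081, RPS6KA1 from -0.089 to 0.13 and MEN1 from -0.034 to 0.15. Same-numbered libraries deviated from their group means with correlations of 0.0855, 0.114 and -0.187, and differently numbered ones from -0.272 to 0.247. With 3 libraries per group these values cannot settle whether the numbers pair the libraries. Under the block FOSL1 had an adjusted p of 0.00330 (edgeR). Of 120 member values under alternatives, 107 kept direction and side of the threshold, 7 reversed, 2 newly passed and 4 no longer passed. JUN rests on 36 to 107 counts per library and BATF3 on 0 to 11.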
